A study of Homo sapiens with 20 samples.

Results

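The genes described here carry the transforming growth factor beta (TGF-β) signal from the ligand to the nucleus. They are the ligand TGFB1, the receptors TGFBR1 and TGFBR2, the receptor-regulated SMAD2 and SMAD3, the common SMAD4, the inhibitory SMAD6 and SMAD7, and the co-repressors SKI and SKIL. A peak was counted for a gene when its summit, the position of strongest signal, lay in an annotated exon of that gene. This gave 277 of the 231465 peaks in all lists. They fell into 38 of 43676 merged regions, a region being the union of overlapping peaks from all libraries, and 16 of the 38 were called in all 10 libraries (42.1%, against 21.9% of all merged regions and 29.6% of those with a summit in an exon). Regions are numbered from 5′ to 3′ along each gene.

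The lists came from methylated RNA immunoprecipitation sequencing (MeRIP-seq), in which RNA fragments carrying N6-methyladenosine (m6A) are pulled down (IP) with an anti-m6A antibody and compared with input RNA. T24 is a human bladder cancer line that is sensitive to cisplatin, and T24R2 is a resistant line obtained from T24 by serial exposure to the drug and kept in medium containing it. The labels give both lines as genotype WT at day 3, with 5 IP libraries of each and 10 input libraries, which enter only through the authors' peak calling. Each line stands for 1 resistant or sensitive cell population, and nothing in the labels says that the 5 libraries of a line came from separate cultures, so the p-values measure only the spread between these libraries.

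In this pathway the ligand brings the type II receptor TGFBR2 together with the type I receptor TGFBR1, which phosphorylates SMAD2 and SMAD3. These bind SMAD4 and move to the nucleus to regulate transcription, while SMAD6, SMAD7, SKI and SKIL limit the signal. The m6A mark is written mostly at adenosines in the DRACH context and is typically dense around stop codons, in long internal exons and in the 3′UTR, where proteins that bind it can change the stability or translation of the RNA.

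The lists held between 17203 and 33120 peaks, with means of 20456 ± 2082 for T24 and 25837 ± 4203 for T24R2 (SD, n = 5), and the T24R2 library of replicate 5 was the longest. Sequencing depth is unknown, since the lists hold no read counts. A peak that is called in fewer libraries can reflect less methylation or less of the transcript, and these cannot be told apart in the lists. Urothelial markers were thinly covered in these bladder lines: 3 of 9 had an exonic peak in any library, with KRT7 the only one to have a region called in all 10 libraries, and a missing peak does not show that a gene was not expressed. No exonic peak was found for UPK1B, UPK2, UPK3A, KRT5, KRT20 or TP63. Of the other marker lists, 2 of 3 mesenchymal, 1 of 3 immune, 2 of 2 endothelial and 1 of 2 fibroblast genes had an exonic peak in at least 1 library, and GATA3, VIM and CDH5 each had a region called in 5 libraries of T24 and 0 of T24R2. The part of these markers in the results was not tested.

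The sequences below are 21-base windows of the hg38 genome, written 5′ to 3′ along the transcript. Each is centred on the DRACH motif nearest to the median summit of a region, with the motif in capitals (D stands for A, G or T; R for A or G; H for A, C or T). They are shown for the regions called in all 10 libraries and for the SKI region whose presence differed most between the lines. The first set lies within 200 nt of a stop codon.
SMAD2 region 3, chr18:47841739-47841759, minus strand: gtccctatGGACTgtttacta
SMAD3 region 5, chr15:67190688-67190708, plus strand: acacgagcAAACCcagaggtg
SMAD7 region 3, chr18:48921498-48921518, minus strand: cggcccaaTGACCacgagttt
SKIL region 4, chr3:170392274-170392294, plus strand: cagagattGGACCatgctgag

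A further set lies deeper in the 3′UTR and shows where SMAD3 and SKI carried peaks away from the stop codon.
SMAD3 region 6, chr15:67192383-67192403, plus strand: acaatacaAAACCcctcactt
SMAD3 region 7, chr15:67194906-67194926, plus strand: gctgttctGGACTctgatgtg
SKI region 6, chr1:2307850-2307870, plus strand: gcttggttGAACAagggaatc

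The next windows lie in the 5′ part of the transcript, in the first exon of TGFB1, SMAD6 and SKI and in the exon of SKIL that holds its start codon.
TGFB1 region 1, chr19:41353527-41353547, minus strand: gggaccccAGACCgcctccct
SMAD6 region 2, chr15:66703607-66703627, plus strand: cccgagagTGACTgcgagacg
SKI region 1, chr1:2229562-2229582, plus strand: gccctggaGAACCggacctgc
SKIL region 2, chr3:170360452-170360472, plus strand: aaaacgatAAACAaggtgcca

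The remaining windows lie in coding sequence of internal exons.
TGFBR2 region 1, chr3:30672038-30672058, plus strand: ctcttggaAGACAgagaagga
SKI region 2, chr1:2302997-2303017, plus strand: cctccataAGACCcaaaacag
SKI region 4, chr1:2304469-2304489, plus strand: ggcggcctGGACAccaaggaa
SKIL region 3, chr3:170391118-170391138, plus strand: tgcagaatGAACAtgctcaaa

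A DRACH match lay within 50 nt of the median summit on the sense strand in 14 of the 16 regions called in all libraries (87.5%), against 93.2% of all such exonic regions of genes on a single strand. Read on the opposite strand, 62.5% of these windows and 70.5% of all held a match. The letters GGAC, which overlap DRACH where A, C or T follows, were found in 10 of 16 (62.5%), against 51.1%. The nearest DRACH motif was at most 42 nt from the median summit, with a median distance of 11.5 nt. SMAD3 region 1 and SMAD7 region 1, both at the 5′ end of the coding sequence, had no DRACH match within the window, which says only that these letters were not there.

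Peaks of these genes lay mainly in coding sequence, as did those of all genes. By their summits on the canonical transcripts, 168 of the 277 peaks were in the CDS, 68 in the 3′UTR, 23 in the 5′UTR, and 18 in exons of other transcripts. By median summit, 70.6% of the regions placed on these transcripts were in the CDS, against 62.2% over all genes. Among regions called in all libraries the CDS shares were 62.5% and 60.7%. Of the 10 genes, 7 had a region with its median summit within 200 nt of the stop codon, against 49.99% of 9230 genes with a placed region, and 5 had a region that close to the start codon, against 29.5%. Counted by region the shares near the stop codon were closer, 23.5% against 21.2%, and among regions called in all libraries they were 25% against 27.2%. Among the 16 regions called in all libraries, 31.2% lay in the first exon and 43.8% in the last exon, where the shares over all genes were 10.8% and 59.9%. The 10 genes were not matched to the others for transcript length, exon number or abundance.

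**Figure D1:**
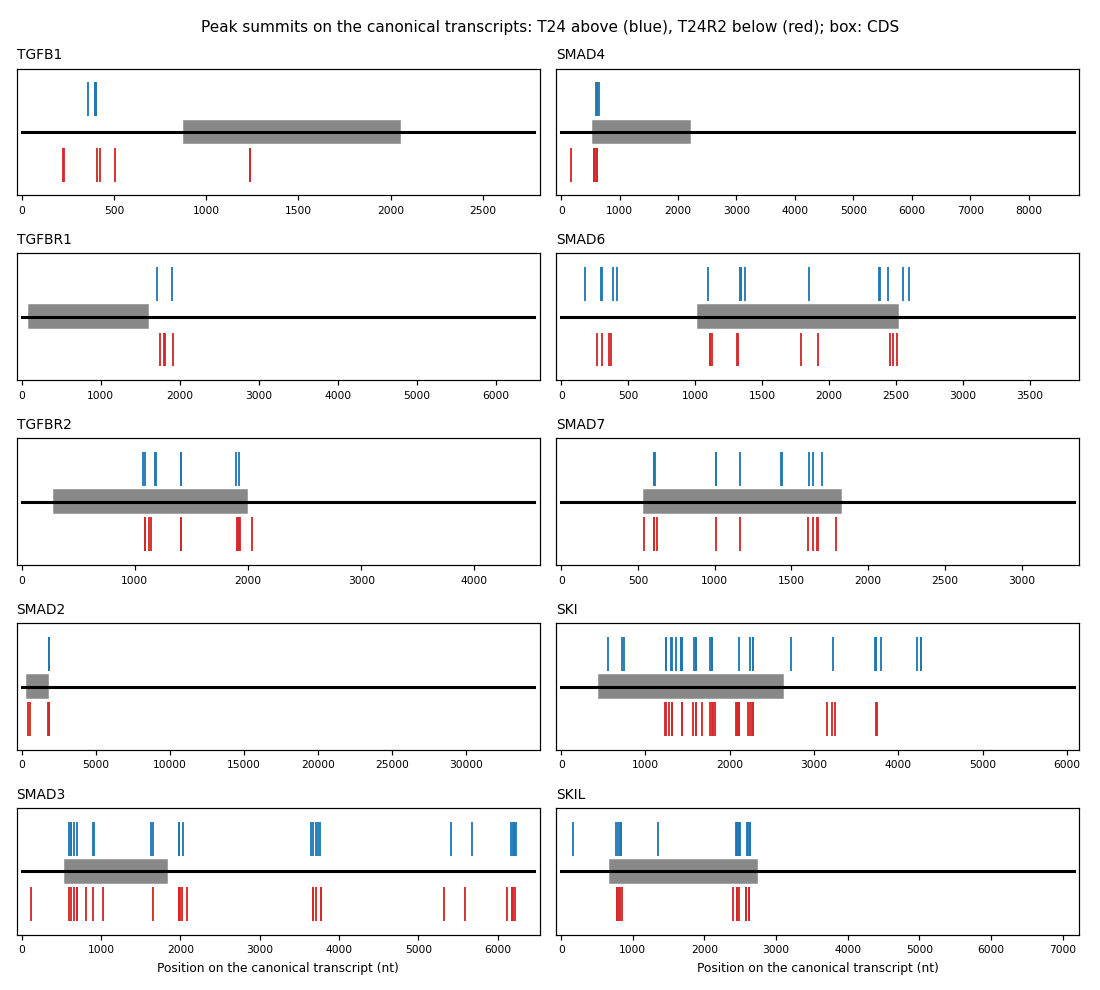
Positions of peak summits on the canonical transcript of each gene, in nt from the transcript start on a separate axis for each gene. Each tick is 1 peak of 1 library, blue above the line for T24 and red below for T24R2, and the grey box is the CDS. Ticks of both lines fall in the same parts of most transcripts, while TGFBR1 has 6 peaks in all and SKI has 65.

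The number of regions called in all libraries ranged from 0 in TGFBR1 and SMAD4 to 4 in SMAD3. Of 10233 protein-coding genes with an exonic peak, 97.9% had fewer such regions than SMAD3 and 93.8% had fewer than SKI or SKIL, which had 3 each. At least 1 exonic peak was found in every library for 8 genes; SMAD4 lacked one in 1 T24 library, and TGFBR1 had one in only 2 T24 and 4 T24R2 libraries.

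For each region, presence was compared as the number of libraries with a peak, with Fisher's exact test (two-sided, 5 against 5). Of the 38 regions, 2 had more T24R2 libraries and 0 had more T24 libraries at an unadjusted p under 0.05. Over all 43676 regions the shares were 7.11% and 2.09%, so the 5.26% found here was close to the background. None passed the Benjamini-Hochberg adjustment over all regions, where 0 of 43676 did. With 5 against 5 the smallest possible Fisher's exact p is 0.00794. Its adjusted value was 0.195, so no region could pass. No region of these genes was called in 5 libraries of one line and 0 of the other. In 15 regions (39.5%) more T24R2 than T24 libraries had a peak, in 4 (10.5%) the reverse held, and in 19 the numbers were equal; over all regions the first shares were 52.6% and 19.6%. Of the 7 regions called in a single library, 5 came from T24R2 replicate 5, the longest list.

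**Figure D2:**
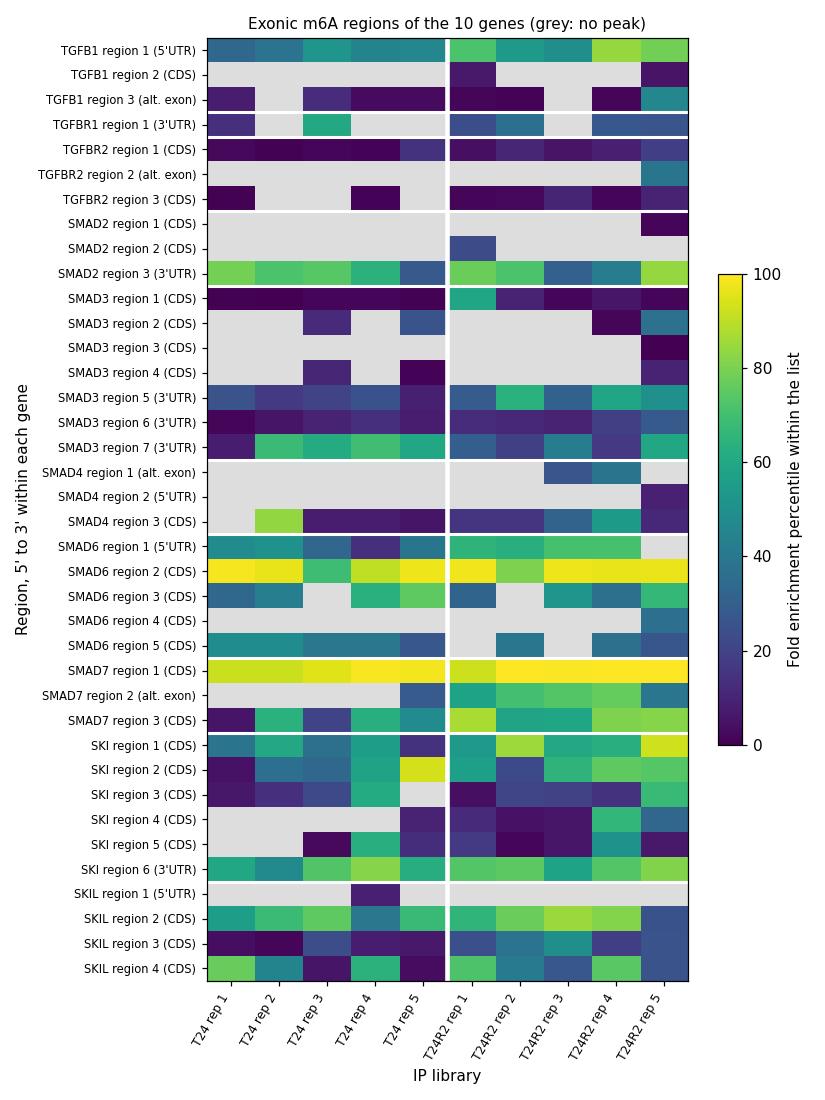
Fold enrichment percentile of the 38 exonic regions (vertical axis, by gene and from 5′ to 3′) in the 10 IP libraries (horizontal axis). Colour gives the percentile of the fold enrichment within the list of each library, from 0 to 100, and grey marks a region without a peak. SMAD7 region 1 and SMAD6 region 2 are bright in all libraries, while SKI region 4 and SMAD7 region 2 are coloured in 5 T24R2 libraries and 1 T24 library.

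Strength was compared as a percentile: the share of peaks in a library's own list whose fold enrichment of IP over input was no higher. This removes the unit of the fold but not the length of the list. For the 9577 regions called in all libraries, a two-sided exact permutation test over all assignments of the libraries to the lines was run, with a smallest possible p of 0.00794. Among the 16 regions of these genes, 6 (in 5 genes) were higher in T24R2 at an unadjusted p under 0.05 and 0 were higher in T24. Over all 9577 regions, 10.8% were higher in T24R2 and 3.05% higher in T24. None of either passed the adjustment; limma on the log2 fold, which called 76 of the 9577 (0.794%) at an adjusted p under 0.05, called 0 of the 16, with 3 at an unadjusted p under 0.05, against 1337 of all 9577. The mean percentile was higher in T24R2 for 14 of the 16 regions, against 64.4% of all, and the median difference was 8.62 percentile points, against 4.78. When every list was shortened to its strongest 17203 peaks by −log10 q, 13 of these regions remained in all lists, 0 were higher in T24R2 and 1 was higher in T24. Of the 6 regions above, 4 remained, all with a higher mean in T24R2 (exact permutation p from 0.0556 to 0.103), and SMAD3 region 1 and SMAD7 region 3 were no longer in every list. At these list lengths the median difference was 2.79 points for these regions and 0.13 for all, with 6.62% of all higher in T24R2 and 5.63% higher in T24. Regions of the same gene are not independent of each other.

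**Figure D3:**
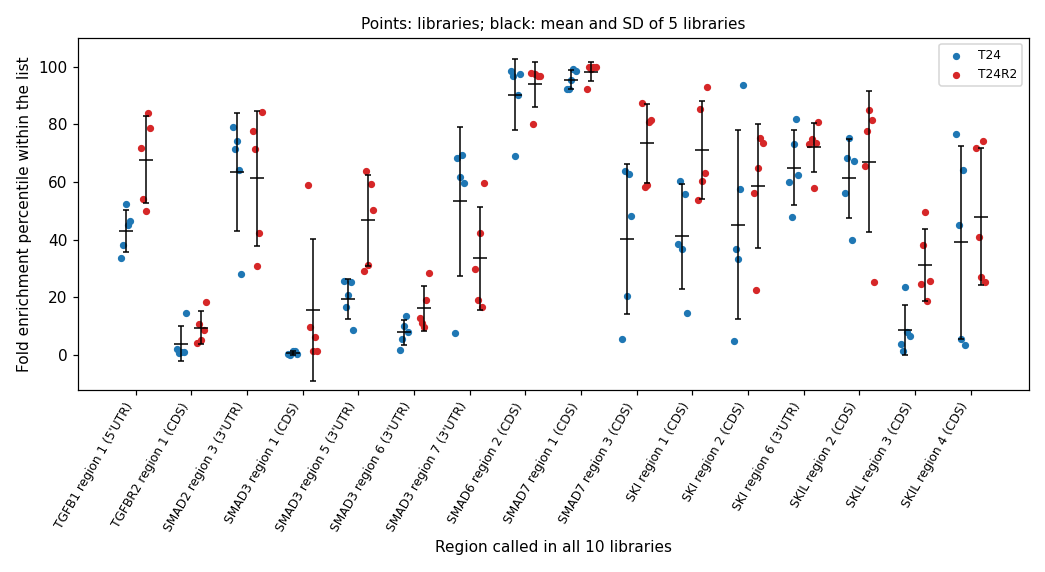
Fold enrichment percentile within the list (vertical axis, 0 to 100) of the 16 regions called in all 10 libraries (horizontal axis), for T24 in blue and T24R2 in red. Points are libraries, and black marks are the mean and SD of 5 libraries. SMAD3 region 5 is the region where the red points (29.1 to 63.7) all lie above the blue ones (8.65 to 25.6), and in the other 15 regions the lines overlap.

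TGFB1, the ligand, had its main region in the 5′UTR, in the first exon (region 1, chr19:41352484-41353898, minus strand), which was called in all libraries. Its fold percentile was 33.7, 38.2, 52.3, 45.1 and 46.4 in T24 replicates 1 to 5, and 71.9, 54.1, 49.9, 84.0 and 78.8 in T24R2. The means were 43.1 ± 7.26 and 67.7 ± 15.1 (SD, n = 5), a difference of 24.6 points (exact permutation p = 0.0159, adjusted p = 0.230), and only T24R2 replicate 3 fell within the T24 range. Equal list lengths left a difference of 20.5 points (exact permutation p = 0.0635). In all 10 lists this region was near the top by −log10 q, where its mean percentile was 96.0 (T24) and 97.5 (T24R2), 1.57 points apart (exact permutation p = 0.278). A region of 4 T24 and 4 T24R2 libraries (region 3) lay in an exon of another TGFB1 transcript that overlaps HNRNPUL1 on the opposite strand. Since the lists carry no strand, that region cannot be assigned to either gene.

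The receptors had few peaks, most of them low by fold percentile. TGFBR1, the type I receptor kinase, had a single region (chr9:99149378-99149640, plus strand) in its 3′UTR, 199 nt past the stop codon, present in 2 libraries of T24 and 4 of T24R2 (Fisher's exact p = 0.524), with percentiles between 13.3 and 60.2. TGFBR2, the type II receptor that binds the ligand, had a region in all libraries in coding exon 4 (region 1, chr3:30671841-30672404, plus strand). Its fold percentile was 2.02, 0.663, 1.2, 1.08 and 14.7 in T24 and 4.26, 10.9, 5.24, 8.84 and 18.4 in T24R2. No library placed it above a fold percentile of 18.4. The means of 3.94 ± 6.06 and 9.53 ± 5.63 (SD, n = 5) differed by 5.59 points (exact permutation p = 0.175), and T24 replicate 5 stood above the other T24 libraries. The percentile of this region by −log10 q was higher, at 38.49, 3.383, 10.35, 22.55 and 50.29 in T24. In T24R2 it was 45.39, 72.85, 45.41, 67.32 and 68.81, a range that only T24 replicate 5 reached. A region of TGFBR2 67 nt before the stop codon was present in 2 libraries of T24 and 5 of T24R2 (Fisher's exact p = 0.167).

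SMAD2 and SMAD3 differed from each other in how many regions they carried. SMAD2 had a single region in all libraries, 90 nt past the stop codon (region 3, chr18:47841553-47842020, minus strand), although its annotated 3′UTR is 32870 nt long. Its percentile was 79.0, 71.6, 74.1, 64.2 and 28.1 in T24 and 77.7, 71.5, 30.8, 42.3 and 84.3 in T24R2. With means of 63.4 ± 20.4 and 61.3 ± 23.4 (SD, n = 5) the lines overlapped widely (T24R2 minus T24 −2.08 points, exact permutation p = 0.937).

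SMAD3 had 7 regions and 53 peaks, and 4 regions were called in all libraries: 1 across the start of the coding sequence and 3 in the 3′UTR. Region 5 (chr15:67190374-67191434, plus strand), 157 nt past the stop codon, had percentiles of 25.6, 16.8, 20.7, 25.2 and 8.65 in T24 and 29.1, 63.7, 31.1, 59.3 and 50.1 in T24R2. Every T24R2 library was above every T24 library, which held for 1 of the 16 regions (6.25%) and for 3.59% of all 9577. The means were 19.4 ± 6.99 and 46.7 ± 15.9 (SD, n = 5), a difference of 27.3 points (exact permutation p = 0.00794, adjusted p = 0.178). Equal list lengths reduced the difference to 15.7 points (exact permutation p = 0.0794), and limma on the log2 fold gave an unadjusted p of 0.0939.

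Region 1 of SMAD3 (chr15:67065266-67066454, plus strand) had its median summit 71 nt into the coding sequence. It was among the lowest peaks by fold in every T24 list, with percentiles of 0.470, 0.0581, 1.29, 1.56 and 0.416. In T24R2 it was 59.1, 9.81, 1.4, 6.25 and 1.30. The difference of 14.8 points (exact permutation p = 0.0317, adjusted p = 0.290) rested largely on T24R2 replicate 1. The 59.1 of that library belongs to a separate peak, with its summit in the 5′UTR at nt 123 of the transcript, while its peak in the coding sequence was at 1.66. Taking the peak nearest to the median summit the difference was 3.32 points, and without that library it was 3.93 points (exact permutation p = 0.0317 for both). Leaving out any T24 library gave p between 0.175 and 0.198. By −log10 q, with the highest peak of each library, the mean percentile of the region was 23.7 in T24 and 60.2 in T24R2. These differed by 36.5 points (exact permutation p = 0.0476).

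The other 3′UTR regions of SMAD3 had means that differed in opposite directions, and neither passed the test on fold percentile. Region 6 (chr15:67192170-67192597) had a mean percentile of 7.83 ± 4.39 in T24 against 16.2 ± 7.76 (SD, n = 5; exact permutation p = 0.0635), with T24 libraries from 1.86 to 13.4 and T24R2 libraries from 9.65 to 28.5. Region 7 (chr15:67193958-67195145), near the 3′ end of the transcript, had values of 7.63, 68.2, 61.7, 69.4 and 59.6 in T24 and 29.9, 18.9, 42.2, 16.6 and 59.7 in T24R2. Its mean was 53.3 ± 25.9 in T24 and 33.5 ± 17.8 in T24R2 (SD, n = 5, exact permutation p = 0.198), and T24 replicate 1 was far below the other T24 libraries. Those others lay between 59.6 and 69.4, and of T24R2 only replicate 5 (59.7) reached that range. By −log10 q, region 6 had mean percentiles of 39.8 ± 13.4 in T24 and 61.5 ± 11.4 in T24R2 (SD, n = 5). Region 7 had 86.2 ± 9.30 in T24 and 77.2 ± 3.71 in T24R2. Regions 5 and 7 are in the same last exon, and their difference between the lines was not compared by a test.

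SMAD4, the partner shared by the receptor-regulated SMADs, had no region in all 10 libraries. Its main region (region 3, chr18:51046963-51047264, plus strand), in coding exon 2 and 69 nt past the start codon, had a peak in 4 libraries of T24 and 5 of T24R2, and it also overlaps an exon of ENSG00000267699 on the same strand. Percentiles were 83.7, 8.14, 8.0 and 5.86 in T24 replicates 2 to 5 and 15.6, 15.4, 32, 54.3 and 11.6 in T24R2. Apart from the T24 library of replicate 2, the T24 values lay below every T24R2 value, and no strength test was run because T24 replicate 1 had no peak. No SMAD4 region lay in its 3′UTR, which is 6575 nt long.

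By fold percentile the inhibitory SMADs held the strongest peaks of the set, both in the first exon. By −log10 q, TGFB1 region 1 ranked above that of SMAD6 in both lines (83.8 and 84.4 for SMAD6) and above that of SMAD7 in T24 (90.9). SMAD6 had region 2 (chr15:66702954-66704388, plus strand) at percentiles of 98.4, 96.6, 69.0, 90.3 and 97.3 in T24. In T24R2 the percentiles were 97.9, 80.1, 97.4, 96.7 and 96.9. The fold enrichment itself ranged from 9.47 to 22.8. The means of 90.3 ± 12.3 and 93.8 ± 7.68 (SD, n = 5) did not differ beyond the spread (difference 3.48 points, exact permutation p = 0.627). SMAD6 was also the gene with a region in 5 libraries of T24 and only 3 of T24R2 (region 5, 59 nt before the stop codon, Fisher's exact p = 0.444), and its 5′UTR region was missing from T24R2 replicate 5 alone.

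SMAD7, which recruits ubiquitin ligases to the type I receptor, had region 1 (chr18:48949814-48952042, minus strand) at the start of the coding sequence at percentiles of 92.2, 92.1, 95.3, 99.2 and 98.4 in T24. In T24R2 it was 92.4 in replicate 1 and between 99.32 and 99.97 in the others. The fold enrichment reached 37.6 in T24R2 replicate 2 and was between 13.3 and 24 in T24, and the percentiles differed by 2.86 points (exact permutation p = 0.175). Only 10 of the 22 summits in this region lay in SMAD7 exons, and the percentile takes the strongest peak of a library in the region, wherever its summit lay. In T24 replicate 3 the 95.3 came from such a summit, and the exonic peak was at 86.8.

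Region 3 of SMAD7 (chr18:48921357-48922001, minus strand), 178 nt before the stop codon in the last coding exon, was 5.50, 63.9, 20.6, 62.7 and 48.3 in T24 and 87.4, 58.4, 58.9, 80.8 and 81.7 in T24R2. The T24 libraries of replicates 2 and 4 overlapped the lower T24R2 libraries. The means were 40.2 ± 26.1 and 73.4 ± 13.7 (SD, n = 5), a difference of 33.2 points (exact permutation p = 0.0476, adjusted p = 0.343). Without T24 replicate 1, 3 or 5, or T24R2 replicate 1, 4 or 5, the exact permutation p was between 0.0635 and 0.0952. Ranked by −log10 q, the mean percentile was 27.1 ± 21.6 in T24 and 66.6 ± 10.6 in T24R2 (SD, n = 5). That difference was 39.5 points (exact permutation p = 0.00794).

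Region 2 of SMAD7 (chr18:48948386-48948579, minus strand) was present in 1 library of T24 and 5 of T24R2 (Fisher's exact p = 0.0476, adjusted p = 0.517). Its percentile was 28.7 in T24 replicate 5 and 57.9, 70.0, 73.2, 76.4 and 39.4 in T24R2. The summits of T24R2 replicates 1 to 4 lay in an exon of a SMAD7 transcript other than the canonical one, and those of replicate 5 of both lines in canonical exon 2, which is 54 nt long. Equal list lengths gave a Fisher's exact p of 0.206. With this region, SMAD7 had 2.2 ± 0.447 exonic peaks per library in T24 and 3 in every T24R2 library (exact permutation p = 0.0476, adjusted p = 0.342), while in exons of the canonical transcript the difference was 0.

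SKI had the most peaks of the set, 65 in 6 regions along nearly all of its coding exons and its 3′UTR. SKI and SKIL bind SMAD complexes and repress their targets. SKI region 1 (chr1:2228348-2229787, plus strand), in the first exon, had percentiles of 38.4, 60.3, 36.8, 55.8 and 14.5 in T24 and 53.7, 85.2, 60.5, 63.0 and 92.9 in T24R2. The means of 41.2 ± 18.1 and 71.0 ± 17.0 (SD, n = 5) differed by 29.8 points (exact permutation p = 0.0317, adjusted p = 0.290), and T24R2 replicate 1 lay within the T24 range. Equal list lengths left a difference of 26.9 points (exact permutation p = 0.103). Leaving out T24 replicate 1, 3 or 5, or T24R2 replicate 2, 4 or 5, gave p between 0.0556 and 0.0714.

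The coding exon 5 of SKI (region 4, chr1:2304317-2304524, plus strand) had a peak in 1 library of T24 and 5 of T24R2 (Fisher's exact p = 0.0476, adjusted p = 0.517). Its percentile was 10.1 in T24 replicate 5 and 12.1, 4.77, 6.12, 66.2 and 33.0 in T24R2, so in 3 of the T24R2 libraries it was a weak peak. When a peak had to cover at least 50% of the region, p was 0.206 (Fisher's exact test). All 6 summits fell between 2076 and 2115 nt of the transcript, near the GGAC motif shown above. Neighbouring exons behaved less clearly: region 3 in exon 4 was called in 4 libraries of T24 and 5 of T24R2, and region 5 in exon 6 in 3 and 5.

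The other SKI regions called in all libraries overlapped between the lines. Region 2 (chr1:2302842-2303394) was 5.01, 36.7, 33.2, 57.5 and 93.5 in T24 and 56.4, 22.4, 64.9, 75.2 and 73.5 in T24R2 (exact permutation p = 0.484). The values of T24R2 replicates 2 and 4 came from peaks with their summits outside SKI exons. Region 6 (chr1:2306457-2308515), in the 3′UTR with its median summit 1097 nt past the stop codon, was 59.9, 47.8, 73.0, 81.7 and 62.4 in T24 and 73.1, 74.7, 57.8, 73.4 and 80.9 in T24R2 (exact permutation p = 0.349). Neither showed a difference in fold percentile larger than the spread between libraries. Within region 6, a cluster of summits about 1629 nt past the stop codon held 4 libraries of T24 and 0 of T24R2 (Fisher's exact p = 0.0476). It did not pass the adjustment, and 1.67% of all summit clusters had more T24 libraries at an unadjusted p under 0.05. Each T24R2 library had 1 peak in region 6, of 1859 to 1985 bases.

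SKIL had 3 regions in all libraries, all in coding sequence. Region 3 (chr3:170390938-170391243, plus strand), in exon 6, was 3.89, 1.57, 23.5, 8.03 and 6.71 in T24 and 24.5, 38.1, 49.7, 18.7 and 25.6 in T24R2. Only T24 replicate 3 reached the T24R2 range. The means were 8.74 ± 8.62 and 31.3 ± 12.5 (SD, n = 5), a difference of 22.6 points (exact permutation p = 0.0159, adjusted p = 0.230). With equal list lengths it was 11.5 points (exact permutation p = 0.0556), and ranked by −log10 q it was 37.5 points (exact permutation p = 0.00794).

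Region 2 of SKIL (chr3:170359906-170361363), 132 nt past the start codon, was 56.1, 68.2, 75.1, 39.9 and 67.2 in T24 and 65.5, 77.6, 85.1, 81.6 and 25.2 in T24R2, with T24R2 replicate 5 lowest of all (exact permutation p = 0.643). Region 4 (chr3:170392113-170392525), 131 nt before the stop codon, was 76.6, 45.2, 5.59, 64.2 and 3.45 in T24 and 71.9, 40.8, 27.1, 74.4 and 25.4 in T24R2 (exact permutation p = 0.651). In region 2 the T24R2 libraries spanned the whole T24 range, and in region 4 the T24 libraries spanned the T24R2 range. The region 4 values of T24 replicate 1 (76.6) and T24R2 replicate 2 (40.8) came from peaks with their summits outside SKIL exons.

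Counted per gene, exonic peaks differed little. The 10 genes together had 22, 24, 29, 28 and 30 exonic peaks in T24 and 30, 24, 28, 27 and 35 in T24R2. Per 10000 exonic peaks of the same list this was 16.7 ± 1.14 in T24 and 15.3 ± 0.967 in T24R2 (SD, n = 5). The mean was higher in T24R2 for 7 of the 10 genes, against 57.4% of all genes with an exonic peak. SMAD7 was the only 1 of the 10 with more peaks in T24R2 at an unadjusted p under 0.05, and 0 had fewer; over all 13972 genes with an exonic peak the shares were 10.4% and 3.53%. None passed the adjustment over all genes, where 0 of 13972 did. No gene could, since the smallest possible exact permutation p of 0.00794 had an adjusted value of 0.134.

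Exonic bases under peaks, a measure added after the peak counts had been seen, separated the lines more. In 5 of the 10 genes (TGFB1, SMAD2, SMAD4, SMAD7 and SKI) more exonic bases were covered in T24R2 at an unadjusted p under 0.05, and 0 had fewer, against 33.1% and 4.28% of all 13972 genes. The mean was higher in T24R2 in 9 of 10, against 80.7% of all. SKI was covered over 3075, 2723, 2968, 2971 and 3114 bases in T24 and 3874, 4003, 3532, 3984 and 4040 in T24R2. The lowest T24R2 library was above the highest T24 library, as in 15.4% of all genes. The means of 2970 ± 152 and 3887 ± 208 bases (SD, n = 5) gave an exact permutation p of 0.00794 and an adjusted p of 0.0438. Over all genes 18.1% passed the adjustment, against 1 of the 10 here. That adjusted value crossed 0.05 in most alternatives, and in each where it did, 0 of all genes passed. It was 0.0560 at equal list lengths and 0.0602 with −log10 q of at least 10. Leaving out 1 library gave values between 0.0415 and 0.0667, under 0.05 only without T24R2 replicate 3. At all of these settings the unadjusted p of SKI stayed at 0.00794 (exact permutation test), the smallest possible. The adjusted value therefore moved only with the values of the other genes. The difference was 916 bases in the main setting, 1082 at equal list lengths and 1681 with −log10 q of at least 10.

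In SKI the peaks of region 1 spanned 864 to 1045 bases in T24 libraries and 1174 to 1440 in T24R2. These are whole peak widths, which can run past the first exon (1417 nt), so they are not exonic bases. The part of this exon in the SKI difference was not computed. SMAD4 was covered over 0, 128, 91, 143 and 60 exonic bases in T24 and 112, 219, 241, 310 and 438 in T24R2 (exact permutation p = 0.0238, adjusted p = 0.0866). SMAD7 had a mean of 1135 ± 218 bases in T24 and 1512 ± 192 in T24R2 (SD, n = 5; exact permutation p = 0.0317, adjusted p = 0.105). For TGFB1 and SMAD2 the p was 0.0476 (adjusted p = 0.127), and their lines overlapped.

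**Figure D4:**
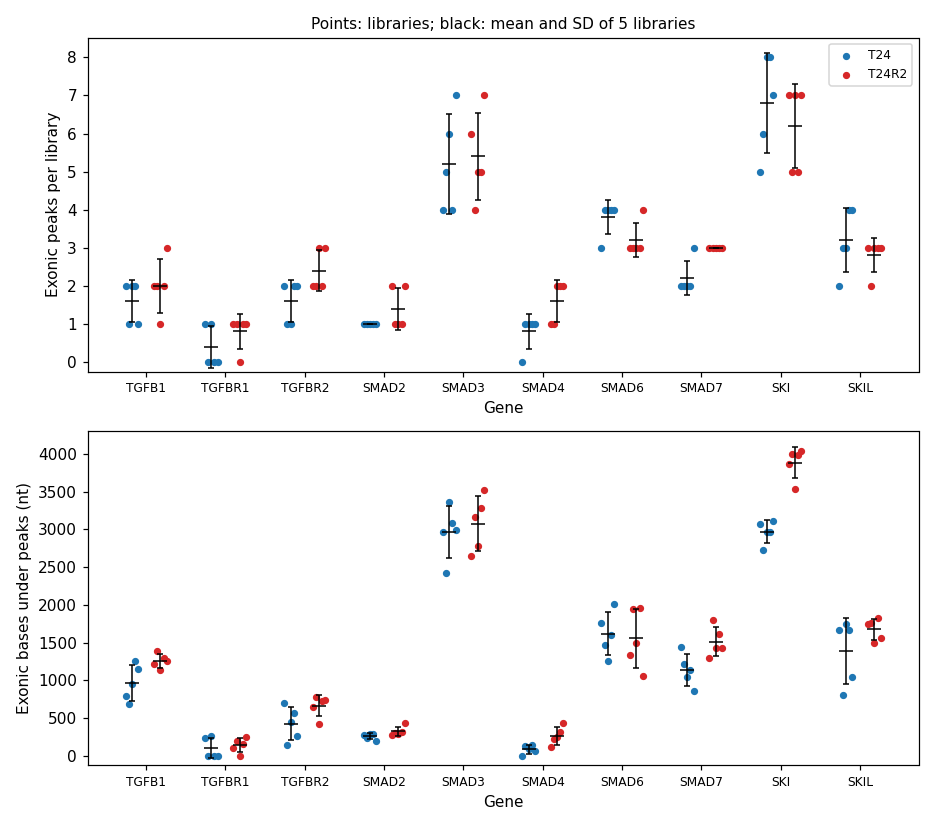
Exonic peaks per library (upper plot) and exonic bases under peaks in nt (lower plot) for each gene, T24 in blue and T24R2 in red. Points are libraries, and black marks are the mean and SD of 5 libraries. The peak counts of both lines overlap in all 10 genes, while the covered bases of SKI do not (at most 3114 in T24, at least 3532 in T24R2).

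Of 60 other genes of the pathway, 51 had an exonic peak and 32 had a region called in all 10 libraries. In their 126 exonic regions, 1 was called in more T24R2 libraries and 7 in more T24 libraries at an unadjusted p under 0.05, where the shares over all regions were 7.11% and 2.09%, and 0 passed the adjustment. Of their 43 regions called in all libraries, 11 had a higher percentile in T24R2 and 0 in T24 at an unadjusted p under 0.05, against 10.8% and 3.05% of all, and 0 passed the adjustment.

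By presence, 4 of these regions were called in all 5 libraries of a line and 0 of the other (Fisher's exact p = 0.00794, adjusted p = 0.195). BMP2, a ligand of the BMP branch, had such a region in T24 (chr20:6767904-6768274, percentiles 26.7 to 79.6). LRRC32, a membrane protein that holds latent TGF-β, had 2 in T24 (chr11:76659083-76659874 and chr11:76660047-76661170) and no exonic peak in any T24R2 library. SNAI2, a transcription factor of epithelial-mesenchymal transition, had one in T24R2 (chr8:48918569-48919102, percentiles 6.05 to 59.0). Over all regions, 1.05% were called in this way in T24 and 3.02% in T24R2. No member of the core set had such a region.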

How the data were processed

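MeRIP-seq peak lists of 10 IP libraries (5 T24, 5 T24R2) were analysed. Per the labels and the study's methods, the authors aligned reads to hg38 (GENCODE v39) with STAR 2.7.0, kept uniquely mapped reads without duplicates with SAMtools 1.10, and called peaks of IP over input for each library with MACS2 (3.0.0a6 in the submitters' processing notes). The deposited fold enrichment is a ratio of IP over input. The authors' peak caller also gave the −log10 p, the −log10 q (2 or more in every list) and the score of each peak. The authors' merged list of 43676 regions was used; merging the 10 lists again gave the same regions. The lists hold no counts, so the study's count tests could not be run.

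Summits were placed in exons of all transcripts of a gene with GENCODE 44, and positions were taken on the canonical transcript. A region belonged to a gene when a summit in it lay in an exon of the gene, and a library had a region when 1 of its peaks lay in it. Presence was tested by Fisher's exact test, strength by percentile, and peaks and covered bases per gene by two-sided exact permutation tests, each run over all regions or genes with Benjamini-Hochberg adjustment; limma 3.58.1 in R 4.3.3 on log2 fold enrichment, centred on the median of each list, was an alternative. The tests were checked on simulated data. Groups and replicate numbers came from the sample titles. Members and gene lists were chosen with earlier results of these data known. The named genes are the 10 members and, of 60 other pathway genes, those with a region in 5 libraries of a line and 0 of the other. Values are given by library for regions called in all libraries or with an unadjusted Fisher p under 0.05; others were described after their values were seen. Analyses used Python 3.11.15, numpy 2.4.6, scipy 1.17.1 and pandas 2.3.3. Alternatives were stricter −log10 q limits (5 and 10), the same number of peaks (17203) per library, peaks covering at least 50% of a region, summits in exons only, canonical exons only, summit clusters at most 100 bp apart, ranking by −log10 q, the peak nearest to the median summit, fits with a replicate block, and omission of each library in turn; covered exonic bases and their alternatives were added after the data had been seen.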

Additional observations from a re-analysis of the deposited data

Results flagged for a closer look

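A library that stood apart from the other 4 of its line by Dixon's test was found in 6 of the 34 groups of 5 percentiles examined, and chance gives such a result in about 5% of groups. The value given for each is the gap to the nearest library divided by the range of the 5. In TGFBR2 region 1, T24 replicate 5 was at 14.75 and the others between 0.6627 and 2.018 (gap 0.9038). In SMAD3 region 7, T24 replicate 1 was at 7.631 and the others between 59.64 and 69.38 (gap 0.8423). In SMAD3 region 1, T24R2 replicate 1 was at 59.05 and the others between 1.295 and 9.81 (gap 0.8526). That value belongs to a second peak of this library in the 5′UTR, and its peak in the coding sequence, where the other libraries had theirs, was at 1.66.

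The strongest regions by fold percentile, those of the inhibitory SMADs, also had such libraries. SMAD6 region 2 had T24 replicate 3 at 69.01 with the others between 90.27 and 98.44 (gap 0.7224), and T24R2 replicate 2 at 80.08 with the others between 96.68 and 97.95 (gap 0.9289). SMAD7 region 1 had T24R2 replicate 1 at 92.4 with the others between 99.32 and 99.97 (gap 0.9132). Its exonic summit lay at nt 1008 of the transcript, and those of the other T24R2 libraries between nt 538 and 624. The library that stood apart was T24R2 replicate 1 in 2 of the 6 groups and a different library in each of the other 4.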

How the results depend on the processing

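Of 390 values computed for the counts and for the regions and genes past an unadjusted p of 0.05, 285 kept their call, 62 lost it, 43 counts changed by more than 1.5 times and 0 were reversed. Covered bases of genes that passed no test did turn sign: SMAD3 (110.4 more in T24R2) to −74 at equal list lengths and −25.2 without T24 replicate 2, TGFBR1 (37.8) to −14.8 at equal list lengths, and SMAD6 (−61.6) to 380.0 with −log10 q of at least 10 and 64.45 without T24R2 replicate 5, which are examples. At equal list lengths (17203 peaks), 1 region (main value 2) was present in more T24R2 and 1 (main value 0) in more T24 libraries, 0 (main value 6) regions had a higher percentile in T24R2 and 1 in T24, 0 genes had more exonic peaks, and 0 genes (main value 1) passed the adjustment for covered bases. With −log10 q of at least 10 the numbers were 4 regions present in more T24R2 libraries, 2 of 7 with a higher percentile, 2 genes with more exonic peaks, and 0 genes for covered bases after adjustment. Covered bases at equal list lengths were higher in T24R2 at an unadjusted p under 0.05 for TGFB1, TGFBR2, SMAD2, SMAD4, SMAD7 and SKI. The share over all genes was 25.1%. Ranking by −log10 q gave 7 regions with a higher percentile in T24R2 (main value 6), 0 in T24 and 0 after adjustment. SMAD3 regions 1 and 5, SMAD7 region 3, SKI region 1 and SKIL region 3 were among them, and TGFB1 region 1 was not. Requiring peaks to cover 50% of a region, or using summit clusters, gave 1 region present in more T24 libraries each. The summit cluster was the one in SKI region 6. Canonical exons alone gave 0 genes with more peaks, covered bases in place of peaks gave 5 genes with 1 after adjustment, and limma on the log2 fold gave 3 regions.

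Leaving out 1 library gave 2 to 3 regions present in more T24R2 libraries, 3 to 7 with a higher percentile in T24R2 (3 without T24 replicate 1 or 3) and 0 to 1 in T24 (1 without T24 replicate 1). It gave 1 to 2 genes with more exonic peaks in T24R2 (2 without T24R2 replicate 1 or 2), 0 to 1 with more in T24 (1 without T24 replicate 1 or T24R2 replicate 5), and 2 to 6 with more covered bases (2 without T24 replicate 2 or 3 or T24R2 replicate 2, and 3 without T24 replicate 5 or T24R2 replicate 4 or 5), with 0 to 1 after adjustment. The cause of these changes was not tested.

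Replicate numbers did not pair the libraries: deviations of same-numbered libraries correlated between −0.0303 and 0.112, and 1 of 5 T24 libraries matched its own number best. With the replicate block, 0 regions or genes passed for presence, exonic peaks or covered bases, where the smallest possible p is 0.0625, and limma with the block kept 3 regions. The lists hold no read counts, so no depth can be set beside any value.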

Other observations

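Introns of these genes held further peaks, which were outside the exonic rule. SKI had 22 intronic peaks over the 10 libraries, with 1, 1, 1, 1 and 2 in T24 and 2, 4, 2, 3 and 5 in T24R2, and no test was run on them. TGFB1 had 18, SMAD6 had 7, SMAD2 and SMAD3 had 3 each, all of them in T24 libraries, and SKIL had 2. TGFBR1, TGFBR2, SMAD4 and SMAD7 had 0. Within the gene body of TGFB1, 53 further summits lay in exons of another gene.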
